A study of Sus scrofa with 5 samples.

Results

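Lipolysis, the release of fatty acids and glycerol from the fat stored in adipocytes, was described here through 9 genes in backfat of pigs. They were chosen by name, with earlier results of these data known. They encode the lipases PNPLA2, LIPE and MGLL, the lipase coactivator ABHD5, the beta-adrenergic receptors ADRB1 and ADRB3, the phosphodiesterase PDE3B, the protein kinase A subunit PRKAR2B and the glycerol channel AQP7. Of these 9 genes, 6 were measured, by 10 of the 23999 probe sets tested, and no probe set was annotated to PDE3B, AQP7 or PRKAR2B. The whole array gave 1 gene symbol to 10069 probe sets, which stood for 6765 genes.

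Backfat RNA of 5 females from an Iberian × Landrace backcross was hybridized to Affymetrix porcine arrays, 1 array per animal. The H group (BC4, BC5 and BC6) and the L group (BC2 and BC3) were extremes of a principal component of carcass and intramuscular fatty acid traits, H with more polyunsaturated and L with more saturated and monounsaturated fatty acids in the muscle. Housing and feed were shared by both groups, and the animals had been fasted when the tissue was taken. For age at slaughter the study gives an average over its pigs and none by group. The labels give the animals' names and the study gives the group of each name. Each animal carried an individual mix of the parental genomes, so a group is no fixed genotype. No treatment was applied.

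In a fasted animal, noradrenaline binds beta-adrenergic receptors on the adipocyte, the stimulatory G protein turns on adenylyl cyclase, and cyclic AMP releases the catalytic subunits of protein kinase A from its regulatory subunits. The kinase phosphorylates perilipin and LIPE on the lipid droplet, and ABHD5, set free from perilipin, activates PNPLA2. PNPLA2 then cuts triacylglycerol to diacylglycerol, LIPE cuts diacylglycerol to monoacylglycerol, and MGLL releases the last fatty acid and glycerol. Glycerol leaves the cell through AQP7. Insulin slows the cascade through PDE3B, which breaks down cyclic AMP.

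The values are on the log2 scale, so a difference of 1 is a doubling. The lowest value of the file, 2.17, was reached by 26.4% to 26.9% of the probe sets on each array, and probe sets there have no level that can be read. Array medians ran from 4.21 to 4.29. Levels of different probe sets cannot be ranked against each other, because probes differ in how well they bind. The tissue label was checked against adipocyte genes. FABP4, the fatty acid carrier of adipocytes, was at 15.36 to 15.49 and LPL, the lipoprotein lipase, at 12.84 to 14.01 on the 5 arrays. The liver genes SERPINA1 and TTR were at 2.17 and at 2.17 to 2.23. Values at or next to the floor do not tell whether liver RNA was present. Of the other liver genes listed, TF was at 3.61 to 4.61, AHSG at 2.22 to 2.65 and FGB at 2.17 to 3.14. APOA1, better known from the liver, was at 11.29 to 12.57 and ALB, albumin, at 2.58 to 4.69. PLIN1, CIDEC and ADIG, also listed as adipocyte markers, had no probe set.

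None of the 10 probe sets of lipolysis genes differed between H and L beyond the spread between animals. A call needed a fold difference of 1.2, a p-value of 0.01 and an adjusted p of 0.1 in limma, and none was made, where 0 of 23999 probe sets (0%) were called. At an unadjusted p under 0.05 there was also none of the 10, against 762 probe sets (3.18%) over the array. So few probe sets cannot be told from that share. Of the 10, 5 probe sets had distinct values on every array. In these the mean of H was higher in 2 and lower in 3, where it was higher in 53.2% of 12727 such probe sets over the array. The 3 H arrays were on one side of both L arrays in none of the 5, against 20.9% over the array. The range of the 3 H arrays was wider than that of the L pair in all 5, as it was in 71.8% over the array, where 3 animals are set against 2.

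PNPLA2, adipose triglyceride lipase, which opens triacylglycerol breakdown, was at 13.56 on BC4, 13.35 on BC5 and 13.15 on BC6 in the H group, against 13.47 on BC2 and 13.45 on BC3 in the L group. The H animals spanned both sides of the L pair. The mean was 13.35 ± 0.204 in H (SD, n = 3) and 13.46 ± 0.0171 in L (SD, n = 2), a difference of -0.11 with a standard error of 0.144 (limma, adjusted p = 1). The 95% interval of the difference ran from -0.54 to 0.33, or 0.688 to 1.25 times the L level. A further probe set of PNPLA2 stayed near the floor, at 2.65, 2.43 and 2.43 in H and at 2.43 and 2.25 in L, with equal values on BC5 and BC2, so it was given no direction.

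LIPE, hormone-sensitive lipase, was at 12.35 on BC4, 12.40 on BC5 and 12.12 on BC6 in the H group, against 12.17 on both BC2 and BC3 in the L group. BC4 and BC5 were above the L pair and BC6 just below it. The mean was 12.29 ± 0.150 in H (SD, n = 3), and the difference from L was 0.12 with a standard error of 0.106 (limma, adjusted p = 1), with a 95% interval from -0.20 to 0.44. LIPE had the smallest spread of the 5 probe sets, with an SD over the 5 arrays of 0.124, below the median of 0.244 for the 662 probe sets within 1 log2 unit of its mean. Without BC6 the difference was 0.20, with an unadjusted p of 0.00736 and, after adjustment in limma, 0.792. The L pair differed by 1.2e-05, so the spread behind this p comes from few values.

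MGLL, monoacylglycerol lipase, had 2 probe sets that followed the same animals. On the brighter one it was at 12.00 on BC4, 11.88 on BC5 and 11.10 on BC6 in the H group, against 11.67 on BC2 and 11.63 on BC3 in the L group. On the dimmer one it was at 7.86, 7.52 and 6.77 on the same H animals, against 7.63 and 7.36 on the same L animals. In both, BC4 was the highest and BC6 the lowest of the 5 arrays, by a range of 0.90 and 1.09 on the log2 scale (1.86-fold and 2.13-fold).

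The group means of MGLL lay close together, at 11.66 ± 0.487 in H (SD, n = 3) and 11.65 ± 0.0248 in L (SD, n = 2) on the brighter probe set. The difference was 0.0063 with a standard error of 0.343 (limma, adjusted p = 1), with a 95% interval from -1.02 to 1.04. On the dimmer probe set it was -0.12 with a standard error of 0.405 (limma, adjusted p = 1), with an interval from -1.33 to 1.10. On the linear scale, the interval of the brighter one spans 0.492 to 2.05 times the L level. Without BC6, the differences were 0.29 on the brighter and 0.19 on the dimmer probe set (limma, unadjusted p = 0.0275 and 0.426, neither called). Without BC4 they were -0.16 and -0.35, so the direction of each depended on which animal of the H group was kept. It also turned on the brighter one without BC5 (-0.10) or BC3 (-0.01) and on the dimmer one without BC2 (0.02).

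ABHD5, also called CGI-58, the coactivator of PNPLA2, was at 10.16 on BC4, 9.42 on BC5 and 10.35 on BC6 in the H group, against 10.29 on BC2 and 10.51 on BC3 in the L group. BC5 was the low animal here, 2.12-fold below BC3, and the other H animals were near the L pair. The mean was 9.98 ± 0.491 in H (SD, n = 3) and 10.40 ± 0.154 in L (SD, n = 2), a difference of -0.42 with a standard error of 0.355 (limma, adjusted p = 1) with a 95% interval from -1.48 to 0.65. Without BC5 the difference was -0.14. ABHD5 had the largest SD over the 5 arrays among the members, 0.423, above 79.4% of 2391 probe sets of similar mean.

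**Figure D1:**
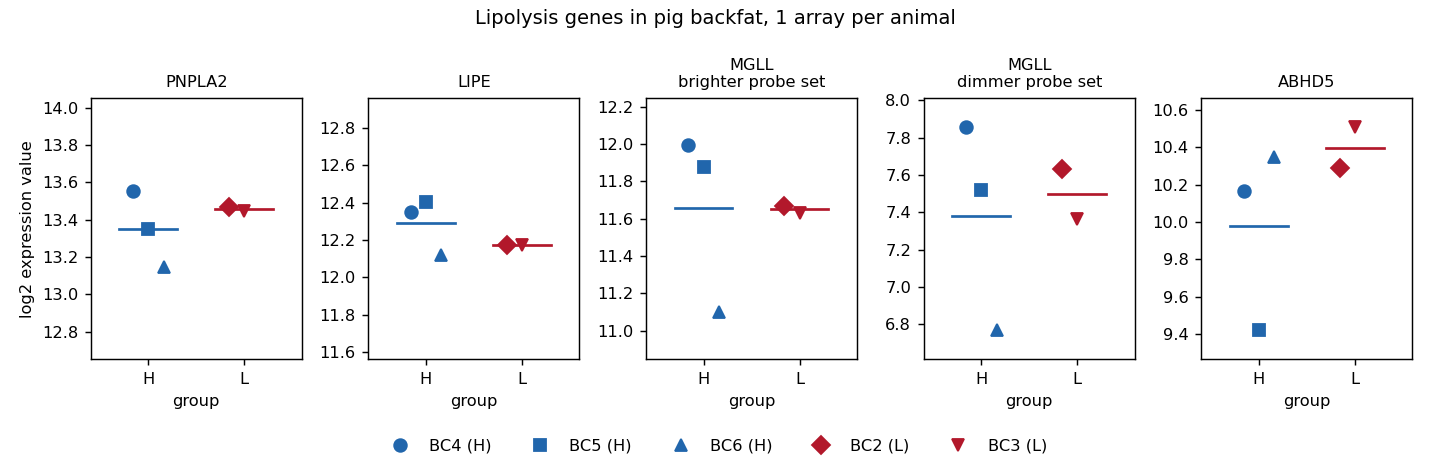
Log2 expression values of the 5 probe sets of lipolysis genes with distinct values on all arrays, 1 point per animal, the H group in blue and the L group in red, with a line at each group mean and the same span of log2 units on every vertical axis. BC6 is the lowest point for PNPLA2, LIPE and both MGLL probe sets and BC5 for ABHD5, and in no panel are the groups apart.

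**Figure D2:**
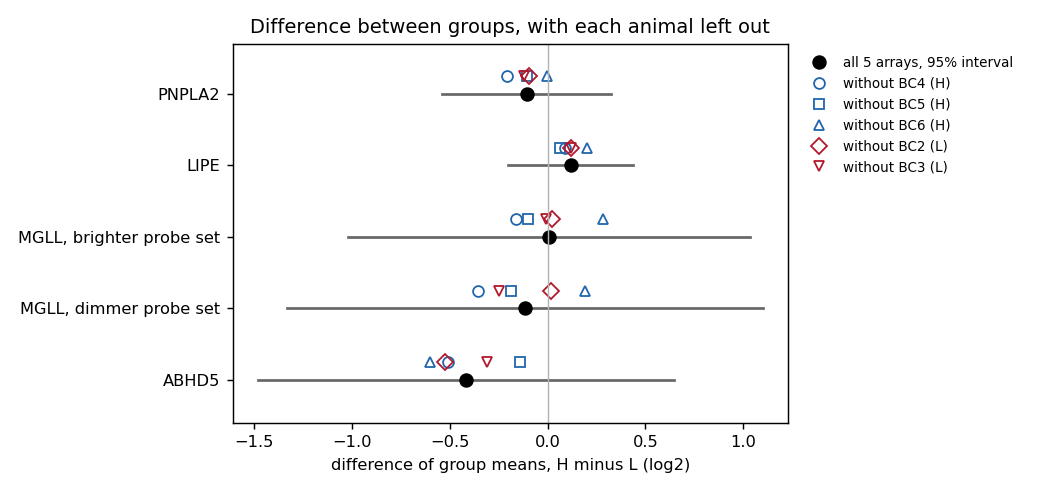
Difference of group means, H minus L, on the log2 scale for the same 5 probe sets, with the 95% interval from limma as a bar and the difference after leaving out each animal as an open symbol. Every interval spans 0, and the widest are those of MGLL and ABHD5.

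The receptors were at or near the floor. ADRB1, the beta-1 receptor, was at the floor of 2.17 on all 5 arrays with both of its probe sets. ADRB3, the beta-3 receptor, which drives lipolysis in rodent fat, was at the floor on all 5 arrays with 1 probe set and at 2.77 on 4 arrays and 2.79 on BC3 with the other. GNAS, the stimulatory G protein subunit that nearly every cell uses, was also at the floor on all 5 arrays with its only probe set, as was ADRA2A, an adrenergic receptor that restrains lipolysis. A value at the floor is therefore read as a lack of array signal, which does not tell whether the transcript was absent or missed. No direction between H and L was given to the receptors.

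Set side by side, the lipases and their coactivator differed in which animal was low. BC6 was the lowest array for 4 of the 5 probe sets, which stand for PNPLA2, LIPE and MGLL, against 19.4% of the 12727 probe sets over the array. Relative to the mean of the 5 arrays, BC6 was at -0.25 for PNPLA2, -0.12 for LIPE, -0.56 and -0.66 for MGLL and 0.20 for ABHD5. BC4 was the highest array for 3 of the 5, PNPLA2 and both of MGLL, against 16.1% over the array. BC5 was the lowest array for 1 of the 5, ABHD5, against 26.3% over the array. Relative to the same mean it was at -0.72 for ABHD5, -0.05 for PNPLA2 and 0.16 for LIPE. The 4 probe sets share their arrays, so they are not independent sightings of a low BC6.

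Levels of cell type markers also differed from animal to animal. The macrophage genes AIF1, CD163 and CD14 were highest on BC6, at 9.31, 8.81 and 4.47, and the mean of the 4 measured markers of 7 listed was 6.19 on BC6, 4.90 to 4.95 on the other H arrays and 5.32 to 5.51 on the L arrays. The fourth, MARCO, was at the floor on all 5. The mean of the 5 measured adipocyte markers of 8 listed was not low on BC6, at 12.24, beside 12.23 on BC2. On BC5 that mean was 10.46, against 11.70 to 12.24 on the other 4 arrays. The low mean came from LEP, the hormone leptin, at 4.41 on BC5 and at 8.27 to 10.48 elsewhere, ADIPOQ, adiponectin, at 9.09 on BC5 and at 10.52 to 12.20 elsewhere, and LPL at 12.84 on BC5 and at 13.52 to 14.01 elsewhere. The other measured adipocyte markers did not follow. FABP4 was highest on BC5, at 15.49, and PPARG, the adipocyte transcription factor, was at 10.50 on BC5 and lower on BC4, at 10.28. The markers also differed on BC6. LEP and PPARG were highest there, at 10.48 and 10.79, while FABP4 was lowest, at 15.36. ADIPOQ was at 10.92 on BC6, below BC4 and BC2, and LPL at 13.65, below BC2.

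BC5 also carried the most signal of skeletal muscle genes, with a mean of 5.71 over 6 measured markers of 8 listed, against 2.52 and 2.89 on the other H arrays and 2.71 and 4.41 on the L arrays. MYL1 and CKM were at 7.52 and 6.95 on BC5. Endothelial markers, 7 measured of 8 listed, had their highest mean on BC5 as well, at 9.07. Of these, VWF was highest on BC3, at 11.04, and KDR was at the floor on 4 arrays. Fibroblast markers, 3 measured of 5 listed, had their highest mean on BC6, at 10.17, with COL3A1 at the floor on all 5 arrays. PNPLA2, LIPE and MGLL were not the lowest on BC5. The part of these cell types in the low ABHD5 of BC5 or in the low lipases of BC6 was not tested, and in a bulk tissue fewer cells of a type and less RNA per cell cannot be told apart.

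**Figure D3:**
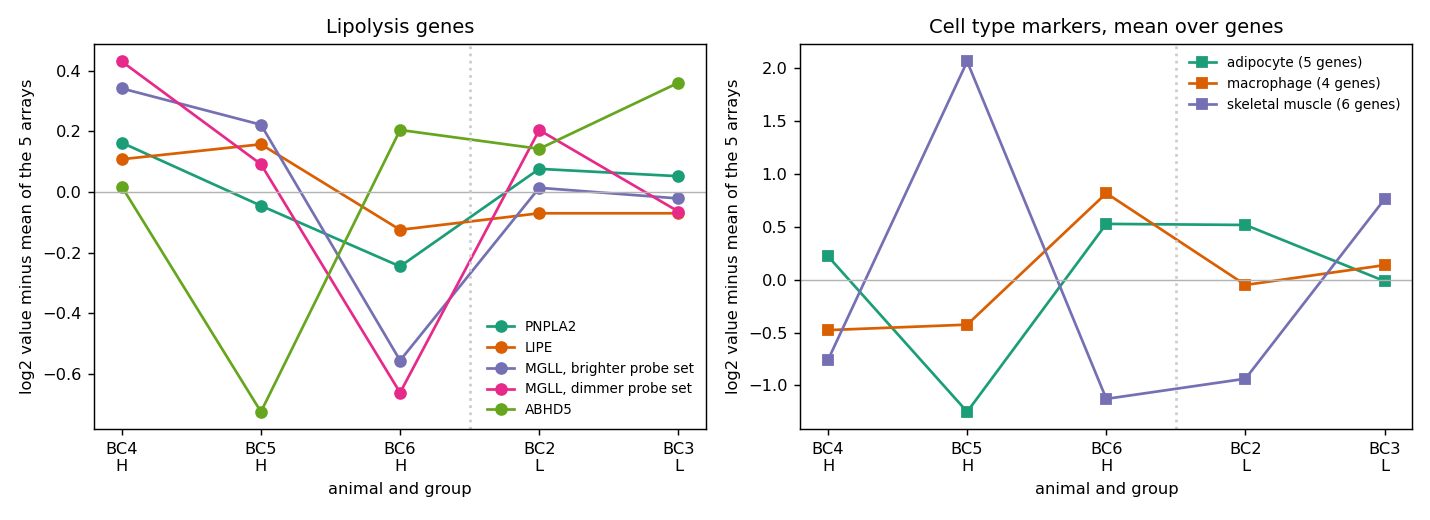
Log2 values minus the mean of the 5 arrays, by animal, for the 5 probe sets of lipolysis genes (left) and for the mean over the measured markers of 3 cell types (right); lines only link the points of one gene or list. BC6 is low for the lipases and high for macrophage markers, and BC5 is low for ABHD5 and for the mean of the adipocyte markers, which LEP, ADIPOQ and LPL carry and FABP4 and PPARG do not follow, and high for skeletal muscle markers.

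The genes that control the cascade around the members were taken from a list of 56, of which 33 had a probe set and 24 had distinct values on the 5 arrays. Their median difference was -0.01, with 11 higher and 13 lower in H, beside a median of -0.0081 over 4854 genes of the array. None passed the threshold in limma, and 1 had an unadjusted p under 0.05, PRKAR1A, where 297 of 6765 genes (4.39%) did. The H arrays were all on one side of both L arrays in 2 of the 24, PRKAR1A and GNAI2, against 1006 of the 4854 genes. PLIN1, G0S2 and every adenylyl cyclase on the list had no probe set.

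PRKAR1A, the type I regulatory subunit of protein kinase A, was at 11.83 on BC4, 12.08 on BC5 and 12.02 on BC6 in the H group, against 11.71 on BC2 and 11.67 on BC3 in the L group. All H arrays were above both L arrays. The difference was 0.28 with a standard error of 0.092 (limma, unadjusted p = 0.0462, adjusted p = 1). Its other probe set overlapped between the groups, at 9.83, 10.94 and 9.84 in H and at 9.60 and 10.52 in L, a difference of 0.15. The catalytic subunits PRKACA and PRKACB differed by -0.01 and -0.02, and PRKACA varied by only 6.37 to 6.46 over the 5 arrays.

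Of the G proteins, GNAI2, an inhibitory subunit, was at 9.70, 10.14 and 9.75 in H and at 9.28 and 9.68 in L, a difference of 0.38 (standard error 0.221) with all H arrays above both L arrays, and of 0.19 without BC2. GNAI1, another inhibitory subunit, differed by -0.06. PDE3A, the relative of the unmeasured PDE3B, was at 4.15, 4.15 and 4.08 in H and at 4.92 and 4.13 in L, a difference of -0.40 (standard error 0.280) that was -0.0063 without BC2. Without BC3 it was -0.80 (limma, adjusted p = 0.0711), with BC2 as the lone L array assumed to vary like the H arrays, and PDE3A passed the threshold under this alternative only. AKT1, a kinase of the insulin arm, differed by 0.52 (standard error 0.306), and by 0.13 without BC2, its lowest array, at 8.59. The other probe sets of PDE3A and AKT1 were at the floor on all 5 arrays. ADORA1, the adenosine receptor that restrains lipolysis, was at 8.15, 7.53 and 7.81 in H and at 9.12 and 7.99 in L, a difference of -0.72 (standard error 0.454) that was -0.16 without BC2. After adjustment in limma, the p of each of them was 1.

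On the lipid droplet, PLIN2, a droplet coat protein, differed by -0.66 (standard error 0.608) and by -0.22 without BC3, and PLIN3, a related coat protein, by 0.33 (standard error 0.331) and by 0.10 without BC6. FABP4 differed by 0.04 (standard error 0.046). HILPDA, an inhibitor of PNPLA2, was picked after its values were seen, because both of its probe sets were highest on BC6. The share of probe sets highest on BC6 was not counted. A link of HILPDA to the low lipases of BC6 was not tested. The brighter one was at 6.73, 7.46 and 9.73 on BC4, BC5 and BC6, against 7.22 and 8.65 on BC2 and BC3, and the group means differed by 0.04 (standard error 1.21).

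For glycerol, AQP3, a water and glycerol channel, was at 12.42, 13.31 and 12.74 in H and at 11.77 and 12.83 in L, a difference of 0.52 (standard error 0.492) that turned to -0.0082 without BC2. AQP11, another member of the aquaporin family, differed by -0.87 (standard error 0.736) and by -0.019 without BC2. Among other lipid hydrolases, CES1, a carboxylesterase, was at 11.29, 7.94 and 10.33 in H and at 11.65 and 10.65 in L, a difference of -1.30 (standard error 1.27) that was -0.34 without BC5. BC5 was the low animal for CES1, as it was for ABHD5, and 3 of the 3 measured hydrolases outside the members were lowest on BC5. Over the array, BC5 was the lowest for 26.3% of probe sets and 29.9% of genes with distinct values. On the wider list it was the lowest for 9 of 24 genes.

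**Figure D4:**
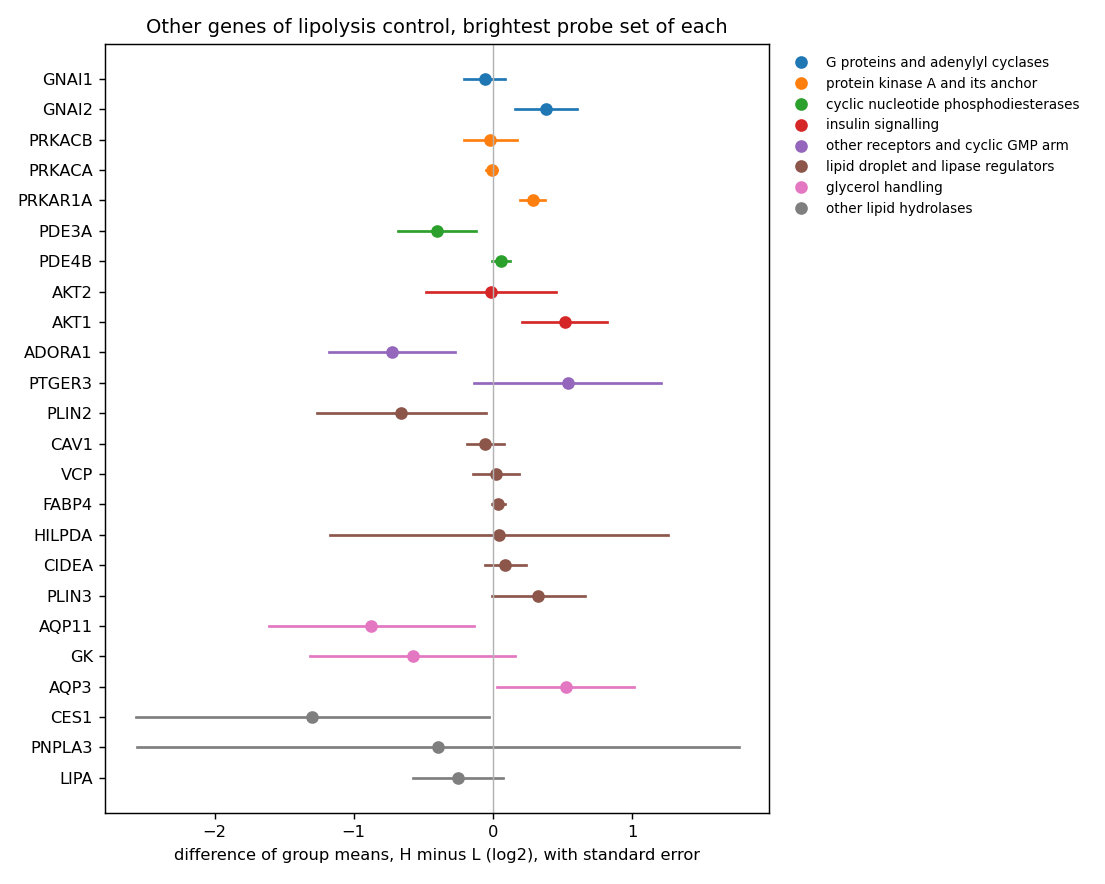
Difference of group means, H minus L, on the log2 scale for the 24 other genes of lipolysis control with distinct values on all arrays, by role, with the standard error from limma as a bar. Differences lie on both sides of 0 in most roles, and PRKAR1A is the only gene with an unadjusted p under 0.05.

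By the SD over the 5 arrays, 0.423 for ABHD5 against 0.411 for the dimmer MGLL probe set, ABHD5 varied most, so its pattern was compared with that of the 10068 other probe sets with 1 symbol. Likeness was the root mean square difference of the log2 values, each centred on its own mean over the 5 arrays. The nearest were LARP4B, an RNA-binding protein, at 0.0396, DNAJB11, a chaperone of the endoplasmic reticulum, at 0.0549, and HAUS1, of the spindle-binding augmin complex, at 0.0605. All were lowest on BC5, LARP4B at 5.47 against 6.17 to 6.62 on the other arrays. With 5 arrays, patterns this near are a description of these animals only.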

How the data were processed

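The deposited values are log2 expression values per probe set, 1 array per animal, made by the authors by background adjustment, normalization between arrays and summary per probe set. The methods name GCRMA and the submitters' processing notes RMA, so the method is not settled, and neither version is given in the sources used here. The extraction note in the labels names liver, and the tissue label and methods name backfat. Of 24123 probe sets, 124 controls were left out and 23999 were tested, H minus L, with limma 3.58.1 in R 4.3.3 without covariates, with Benjamini-Hochberg adjustment over all of them. Calls needed a fold difference of 1.2, a p-value of 0.01 and an adjusted p of 0.1, as given for RNA-Seq, since the methods give no test for the arrays. Gene symbols came from a platform annotation. The brightest probe set stood for a gene of the wider list. Probe sets with values equal within 1e-06 on some arrays were given no direction, which was decided after the values were seen. Named genes were all members, the 10 genes of the wider list with the smallest p and some fixed by name, among them FABP4, PRKACA, PRKACB and GNAS. HILPDA, GNAI1, ADRA2A and the marker genes named were chosen for the text after their values were seen. The members and lists were chosen with earlier results of these data known. The steps were run on simulated data with known changes put in, to check that the estimates came near them. That check bears on the estimates and not on the lack of calls. Alternatives were other scalings, filters, variance models, array weights and thresholds, and leaving out each animal. For the wider list only, the mean of a gene's probe sets was a further one. The number of arrays limits the precision. No sequence of a probe or protein was used here.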

Additional observations from a re-analysis of the deposited data

How the results depend on the processing

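No probe set of a lipolysis gene passed the threshold in limma under any alternative run. The directions of LIPE, ABHD5 and the brighter PNPLA2 probe set were kept under the other scalings, with array weights and without each animal in turn. The PNPLA2 probe set near the floor, with equal values on BC5 and BC2, was not followed. The filters and variance models leave a difference as it is by construction. The brighter PNPLA2 probe set ran from -0.21 to -0.0055, nearest to 0 without H replicate 6. LIPE ran from 0.06 to 0.20 and ABHD5 from -0.60 to -0.14. The brighter MGLL probe set, at 0.0063 over all arrays, turned to -0.036 with median centring and ran from -0.16 to 0.29 without 1 animal. The dimmer one, at -0.12, ran from -0.35 to 0.19 without 1 animal. Leaving out 1 animal leaves fewer arrays, while median centring keeps all of them, and the cause of these shifts was not tested. Over the array, 0 to 286 probe sets passed without 1 animal, 160 without L replicate 2 and 286 without L replicate 3, and 762 had an unadjusted p under 0.05. Of the other genes of lipolysis control, 0 to 1 passed without 1 animal, and 1 had an unadjusted p under 0.05. The one that passed was PDE3A without L replicate 3, at -0.80 (adjusted p = 0.0711 from limma), with the lone L array assumed to vary like the H arrays. Their median difference of -0.01 ran from -0.08 to 0.06 without 1 animal. Leaving out probe sets at the floor on all arrays was chosen after seeing the data and changed no call. No animal number occurs in both H and L, so no analysis paired by animal was possible. The study used pedigree to avoid sibs within a group, and kinship between H and L animals is not given. Both ADRB1 probe sets and 1 of ADRB3 stayed at the floor, and the other of ADRB3 was tied at 2.77 on 4 arrays, so their direction was not followed.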
